A study of Homo sapiens with 12 samples.

Results

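The regions described here are stretches of the genome where dCas9 peaks were listed with sgRNA5 and with sgRNA6 and with none of the other 4 guides of the series. They were selected on the presence of peaks in the 9 deposited lists: peaks that shared at least 1 bp were joined into regions, and a region was a member if it held a peak of sgRNA5 and one of sgRNA6 but none of sgRNA1, sgRNA2, sgRNA3 or sgRNA4. Of 43438 regions in all, 1790 were members, which is 4.12% of them. This count follows from the rule and is a description. HEK 293T, a human embryonic kidney line, was transfected with HA-tagged dCas9 and 1 guide per library by means of Fugene6, and cells were collected 3 days later for chromatin immunoprecipitation with an HA antibody. sgRNA5 and sgRNA6 were represented by 1 library each, as was sgRNA4, and sgRNA1 to sgRNA3 by 2 each. The library of dCas9 without a guide was not analysed here, so peaks that a guide brings and pull-down without any guide cannot be told apart in these regions. Because each of the guides that define the regions had 1 library, no value below carries a replicate error and none was tested. The intervals given are 95% intervals for counting error only.

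Cas9 finds its sites in steps. The protein first recognises a short protospacer adjacent motif in double-stranded DNA, then unwinds the DNA next to it and lets the guide pair with the target strand, starting from the seed, the end of the guide nearest the motif. dCas9 carries mutations in its nuclease domains, so it can pair and stay bound but does not cut. Binding can therefore be seen by ChIP-seq at sites that match only the seed, and easily reached, open chromatin is known to favour such binding. The guide sequences and an hg19 genome were not used here, so regions are named by position on hg19, counted from 1, and no sequence is given.

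The members took up a much larger part of the sgRNA5 list than of the sgRNA6 list. Of 8346 sgRNA5 peaks, 1821 lay in members (21.8%, 95% interval 20.9 to 22.7, exact binomial). Of 33611 sgRNA6 peaks, 1839 did (5.47%, 5.23 to 5.72). The sgRNA6 list was the longest of the series, so the same regions are a smaller share of it. Altogether 4623 regions held both guides, and the members were 38.7% of these (37.3 to 40.1). The other regions with both guides also held a peak of at least 1 further guide, and in 1820 of them that guide was sgRNA4 alone.

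Most members were simple. A single peak of each guide made up 1713 of the 1790 regions (95.7%, 94.7 to 96.6). A further 46 held 1 sgRNA5 peak and several sgRNA6 peaks, 29 held several sgRNA5 peaks and 1 sgRNA6 peak, and 2 held several of both. The median member was 953 bp wide (interval 933 to 968), with quartiles of 767 and 1230 bp, a minimum of 392 bp and a maximum of 3581 bp. Where a guide had several peaks in a region, the one with the highest score stands for it below.

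Scores are the peak caller's own value for each peak as the authors deposited it. They are set only against other peaks of the same list, because the read depth of the libraries is unknown. No list held a score below 50. At the members, the sgRNA5 score had a lowest value of 50, a median of 66.0 (65.1 to 66.8) and a highest value of 392.2. The sgRNA6 score there had a lowest value of 50.1, a median of 122.1 (116.6 to 126.2) and a highest value of 2813. Near the floor, 338 of 1790 members (18.9%, 17.1 to 20.8) had an sgRNA5 score under 55, beside 20.7% of the whole sgRNA5 list. An sgRNA6 score under 55 was found in 81 members (4.53%, 3.61 to 5.59), beside 9.93% of the whole sgRNA6 list.

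**Figure D1:**
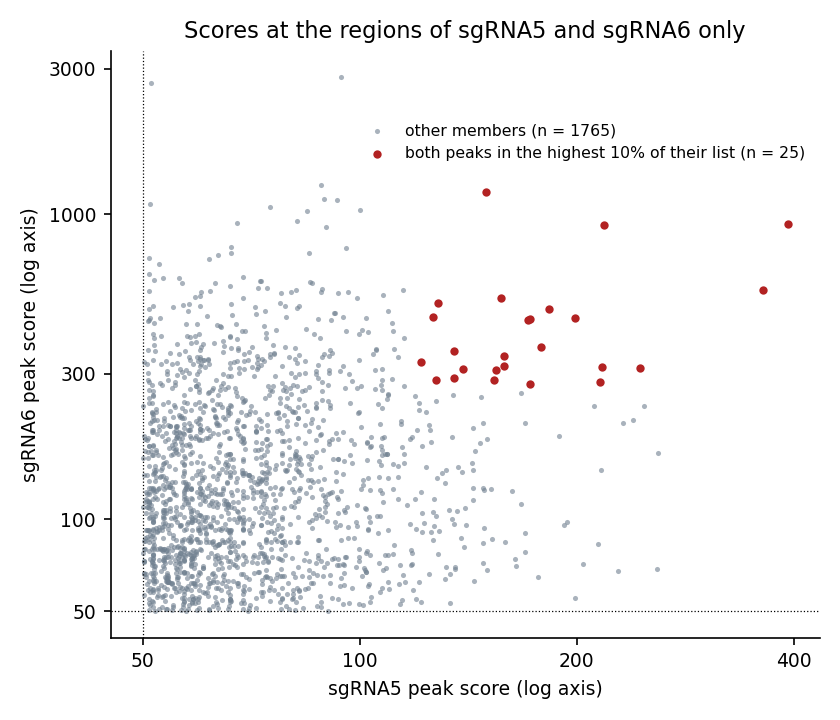
Score of the sgRNA5 peak (x axis, log scale) and of the sgRNA6 peak (y axis, log scale) at each of the 1790 members, 1 point per region; dotted lines mark a score of 50, below which no list holds a peak. The 25 members whose peaks were both in the highest-scored 10% of their list are in red, and the cloud shows a weak relation between both scores (Spearman's rho 0.12).

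The members were ordinary peaks of the sgRNA5 list and higher-ranking peaks of the sgRNA6 list. The sgRNA5 peaks in members had a median score of 65.8 (64.8 to 66.3), beside 66.1 (65.7 to 66.5) for the whole sgRNA5 list. The sgRNA6 peaks in members had a median of 120.0 (114.8 to 124.6), beside 89.97 (89.03 to 90.8) for the whole sgRNA6 list. Expressed as rank from the top of the list, the median member stood at 50.3% of the way down the sgRNA5 list and at 33.2% down the sgRNA6 list. In 1174 of 1790 members (65.6%, 63.3 to 67.8) the sgRNA6 peak held the better relative rank, close to the 63.8% of regions of all 3 long lists and the 62.8% of all 4623 regions with both guides.

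The upper ends of both lists showed the same contrast. By construction, 9.99% of sgRNA5 peaks and 10.0% of sgRNA6 peaks were in the highest-scored 10% of their list. Among the members, 115 of 1790 (6.42%, 5.33 to 7.66) had an sgRNA5 peak in that range, a share below that of the list, but without the sgRNA4 list as a bar it was 10.7%. For sgRNA6 the number was 309 of 1790 (17.3%, 15.5 to 19.1), a share above that of the list. Counted by peak, the members had 6.32% with sgRNA5 and 16.8% with sgRNA6. Peaks shared with sgRNA4 only were near these, at 6.78 and 15.1%, and those in all 3 long lists were higher, at 14.2 and 26.9%. The highest sgRNA5 score of any member, 392.2, was far under the highest of the sgRNA5 list, 2319, and belonged to the peak of rank 21, so every higher-ranked sgRNA5 peak lay outside the members. With sgRNA6 the member of highest score, 2813, held rank 11, and the list's maximum was 3160. In that list 5 peaks shared a score of exactly 3100, so distances between its highest scores should be read with care.

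Peaks of the same lists in other classes of region place these values. Among sgRNA5 peaks the median score was 59.4 (58.8 to 60.1) for the 2912 found with sgRNA5 alone, 65.9 (64.0 to 68.5) for the 457 shared with sgRNA4 only, and 74.1 (72.7 to 76.1) for the 1907 in regions of sgRNA4, sgRNA5 and sgRNA6 only. The members, at 65.8, lay with the peaks shared with sgRNA4 and between those found alone and those in all 3 long lists. Among sgRNA6 peaks the members again lay between those found alone and those in all 3 long lists. The median was 81.0 (80.2 to 81.8) for the 24499 found with sgRNA6 alone, 114.1 (111.4 to 118.0) for the 3695 shared with sgRNA4 only, 120.0 for the members and 156.8 (151.2 to 166.7) for the 1987 in all 3 long lists. The intervals of the members overlapped those of regions shared by 1 pair that includes sgRNA4, and did not overlap those of the classes found alone or in all 3. The rule bars a region from the members as soon as sgRNA4 has a peak there, so these classes differ by the rule in sgRNA4 and the differences were not tested.

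**Figure D2:**
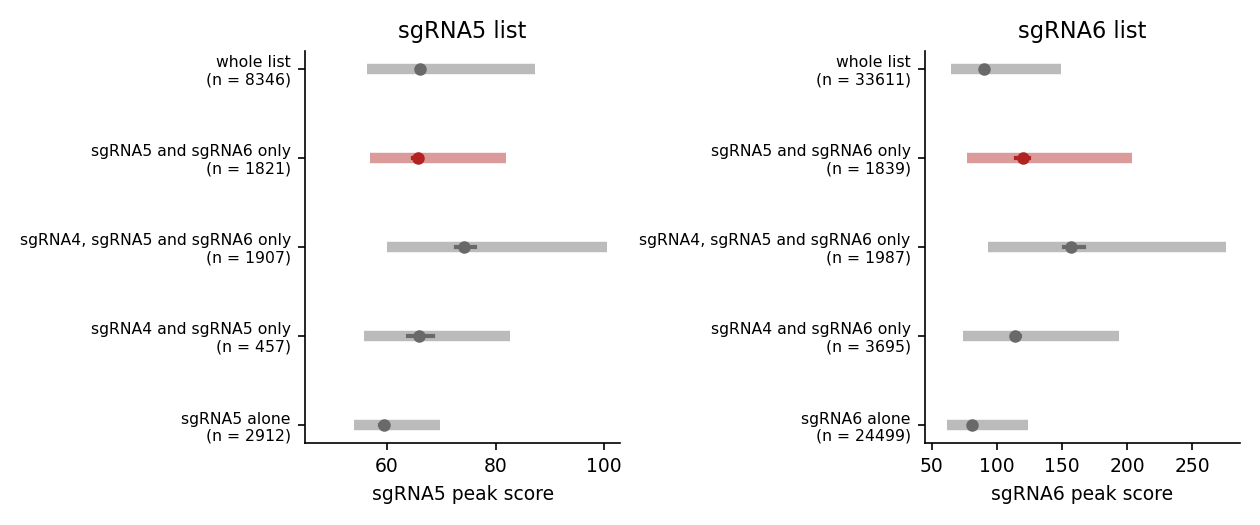
Peak scores by class of region in the sgRNA5 list (left) and the sgRNA6 list (right); points are medians, thin dark bars their 95% intervals and broad pale bars the quartiles, with the number of peaks in brackets. Members (red) sit at 65.8 with sgRNA5, near the whole list, and at 120.0 with sgRNA6, to the right of the whole list at 89.97, and in both panels to the left of peaks in all 3 long lists.

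Peaks in members were wider than those found alone and narrower than those in all 3 long lists. The median sgRNA5 peak in members was 634 bp wide (622 to 646), beside 542 bp for sgRNA5 alone, 653 bp for those shared with sgRNA4 only and 729 bp in all 3 long lists. The median sgRNA6 peak in members was 798 bp wide (785 to 821), beside 621 bp for sgRNA6 alone, 813 bp with sgRNA4 only and 940 bp in all 3 long lists. Width and score go together within a list: over the members Spearman's rho was 0.37 between sgRNA5 score and width and 0.55 between sgRNA6 score and width (n = 1790 regions, a description across regions of the same libraries).

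When each list was divided by score into 10 parts of equal size, the place of the members differed between the lists. In the sgRNA5 list, members made up 13.8% of the highest part (11.5 to 16.3), 19.5% of the second (16.9 to 22.4) and 25.2% of the third (22.3 to 28.3), and between 19.5 and 24.4% of each lower part. The highest sgRNA5 part was instead filled by regions of all 3 long lists (32.5%) and by the remaining combinations (44.4%). In the sgRNA6 list, members were most frequent at the top, with 9.19% of the highest part (8.24 to 10.2) and 2.65% of the lowest (2.13 to 3.25). From the highest part to the lowest, the peaks of sgRNA6 alone went from 44.7 to 86.1%. Peaks in all 3 long lists went from 15.9 to 2.26% and the remaining combinations from 30.2 to 8.96%. The fall was thus not particular to the members. A strong sgRNA6 peak was thus more often in a member than a weak one, whereas sgRNA5 peaks of middle score were in members more often than the strongest.

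**Figure D3:**
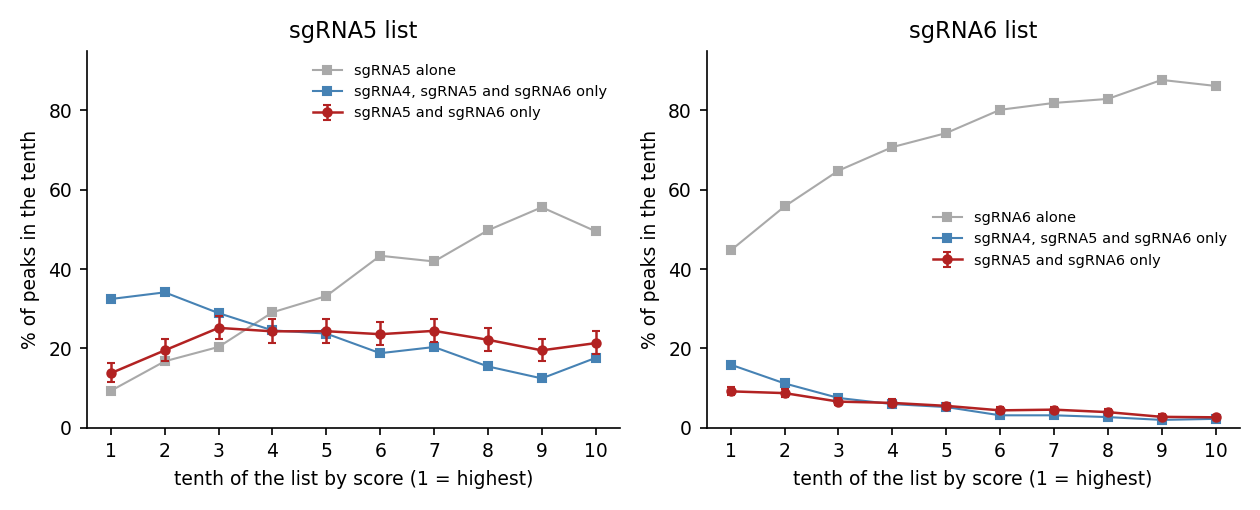
Share of peaks in each of 10 equal parts of the sgRNA5 list (left) and sgRNA6 list (right), from the highest scores (1) to the lowest (10), that lie in members (red, with exact binomial 95% intervals), in regions of that guide alone (grey) or in regions of all 3 long lists (blue). The red line goes from 13.8% to 25.2% over the 3 highest sgRNA5 parts, and from 9.19% in the highest to 2.65% in the lowest sgRNA6 part.

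The scores with both guides were weakly related. Spearman's rho between the sgRNA5 and sgRNA6 score was 0.12 over the 1790 members, and likewise 0.12 over the 1820 regions of all 3 long lists, and 0.19 over all 4623 regions with both guides, as a description across regions of 1 library per guide. In the 358 members with the highest sgRNA5 scores (88.4 to 392.2), the median sgRNA6 score was 136.7 (122.3 to 155.4). In the 358 with the lowest sgRNA5 scores (50 to 55.4), it was 108.7 (100.8 to 117.1). The share of sgRNA6 peaks in the highest 10% of their list went from 23.2 to 11.7% between those groups. Of all members, 635 (35.5%) were in the upper 50% of both lists, 572 (32.0%) in that of sgRNA6 only, 256 (14.3%) in that of sgRNA5 only and 327 (18.3%) in neither.

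In 25 members (1.397%, 0.906 to 2.05) both peaks were in the highest-scored 10% of their list, against 96 of 1820 regions of all 3 long lists (5.27%, 4.29 to 6.40). The share of members with an sgRNA5 peak in that range was 6.42%, or 10.7% without the sgRNA4 list as a bar. The member ranked best in both lists lay on chromosome 1 at 148247169 to 148248351. It scored 392.2 with sgRNA5 (rank 21 of 8346) and 930.3 with sgRNA6 (rank 154 of 33611), and the peak centres were 10 bp apart, with the sgRNA5 peak of 1119 bp wholly inside the sgRNA6 peak of 1183 bp. The nearest sgRNA4 peak was 70410 bp away.

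The next best on both ranks lay on chromosome 6. The region at 118971384 to 118973237 scored 218.4 with sgRNA5 (rank 106) and 926.6 with sgRNA6 (rank 157), and its peaks, 1800 and 1825 bp wide, shared 1771 bp. No sgRNA4 peak lay within 696 kb and no peak of sgRNA1 to sgRNA3 within 1167 kb of it. The region at 37189687 to 37190811 scored 362.8 with sgRNA5 (rank 28) and 567.4 with sgRNA6 (rank 585). Only this member and the one on chromosome 1 at 148247169 had an sgRNA5 rank under 50.

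Of the other members that ranked best on their worse list, both on chromosome 2 had well-aligned peaks. The region at 3605486 to 3606679 scored 183.0 with sgRNA5 and 489.2 with sgRNA6, ranks 209 and 860, and the region at 159313567 to 159314923 scored 199.0 and 459.1, ranks 151 and 997. In each, the sgRNA5 peak lay wholly inside the sgRNA6 peak. The second of them had an sgRNA4 peak only 128 bp away, so a slightly wider sgRNA4 peak would have removed it from the members. A region on chromosome 4 at 107236820 to 107237846 scored 172.2 with sgRNA5 and 454.0 with sgRNA6, with centres 22 bp apart and no sgRNA4 peak within 606 kb. A region on chromosome 19 at 48828413 to 48829263 scored 157.1 and 532.7.

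A pair of wide members lay side by side on chromosome 1. The region at 161429980 to 161433305 was 3326 bp wide and scored 171.2 with sgRNA5 (rank 252) and 450.2 with sgRNA6 (rank 1049), and its peaks shared 2781 bp, the largest overlap of any member. The region at 161437839 to 161440600, 4533 bp further on, scored 178.5 (rank 223) and 366.4 (rank 1677) and shared 2512 bp, the second largest. Both had an sgRNA4 peak close by, at 189 and 90 bp. Peaks of a further guide stood beside these members without touching them.

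Chromosome 1 held 8 of the 25 members that were high in both lists (32.0%, 15.0 to 53.5), against 213 of all 1790 members (11.9%, 10.4 to 13.5). This count was made after the values had been seen. Among all 260 regions that were high in both lists, whatever the other guides, chromosome 1 held 62 (23.8%, 18.8 to 29.5), and it held 14.3% of the 4623 regions with both guides. Of the 8, the 4 at 145395100, 147520709, 147999850 and 148247169 lay within 2.85 Mb of each other.

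Some members stood higher in the sgRNA5 list than in the sgRNA6 list. The region on chromosome 17 at 8286220 to 8287325 scored 259.1 with sgRNA5 (rank 60) and 165.3 with sgRNA6 (rank 7174). The region on chromosome 5 at 177556510 to 177558045 scored 258.4 (rank 62) and only 68.9 (rank 23317), and a 599 bp sgRNA6 peak lay inside a 1536 bp sgRNA5 peak. The region on chromosome 1 at 153516958 to 153518064 scored 247.8 (rank 71) and 235.0 (rank 4079), with an sgRNA4 peak 75 bp away. These were the highest sgRNA5 peaks after the first 2. Their sgRNA6 ranks ranged from 4079 to 23317, or from 12.1 to 69.4% down that list.

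The widest gaps of that kind were on chromosomes 8, 4 and 17. On chromosome 8 at 99838198 to 99838783 the sgRNA5 score was 198.7 (1.82% down the list) and the sgRNA6 score 55.5 (89.3% down). On chromosome 4 at 9692735 to 9693715 the scores were 133.3 and 53.1, and on chromosome 17 at 36908042 to 36909693 they were 121.7 and 53.8. In all 3 the sgRNA6 peak was close to the floor of 50, so with a somewhat higher floor they would have counted as sgRNA5 peaks alone.

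The opposite pattern was found among the strongest sgRNA6 members. The highest, on chromosome 20 at 62062895 to 62064476, scored 2813 with sgRNA6 (rank 11 of 33611) and 94.3 with sgRNA5 (rank 1683 of 8346). The second, on chromosome 2 at 2840244 to 2842370, scored 2695 with sgRNA6 (rank 14) but 51.4 with sgRNA5 (rank 7910). There the peaks met only at an edge: they shared 224 bp, 44.9% of the smaller, and their centres were 952 bp apart. A shared label therefore covers cases in which the peaks are not centred on the same place.

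The other 3 members with the highest sgRNA6 scores were better aligned. They lay on chromosome 16 at 3207411 to 3208911 (1249.6 with sgRNA6, 88.4 with sgRNA5), on chromosome 17 at 42580137 to 42581428 (1186 and 149.5) and on chromosome 8 at 71315871 to 71317075 (1121 and 89.1). Their centres were 64 to 86 bp apart. Of the 5 strongest sgRNA6 members, the one on chromosome 17 at 42580137 was the only one also in the highest 10% with sgRNA5. The largest rank gaps in favour of sgRNA6 were on chromosome 2 at 208029962 to 208031871 (561.5 with sgRNA6, 50.9 with sgRNA5), on chromosome 19 at 41222367 to 41223111 (1084 and 51.2) and on chromosome 2 at 23608703 to 23610220 (720.9 and 51.0), all with an sgRNA5 score within 2 of the floor.

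In most members the peaks covered each other well. The median overlap was 534 bp (525 to 546), or 96.7% of the smaller peak. The sgRNA5 peak lay wholly inside the sgRNA6 peak in 592 of 1790 members (33.1%, 30.9 to 35.3), the sgRNA6 peak inside the sgRNA5 peak in 142 (7.93%, 6.72 to 9.28), and in the other 1056 each peak reached past the other on 1 side. At least 50% of the wider peak was covered in 1295 members (72.3%, 70.2 to 74.4). No member had the same start and end in both lists, 0 of 1790. Peaks of 482 members (26.9%) were wider with sgRNA5 than with sgRNA6.

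The peak centres were a median of 136 bp apart (129 to 145), with quartiles of 56.1 and 274 bp. They lay within 100 bp of each other in 705 members (39.4%, 37.1 to 41.7) and more than 500 bp apart in 153 (8.55%, 7.29 to 9.94). In regions of all 3 long lists the sgRNA5 and sgRNA6 centres were a median of 177 bp apart (166 to 190), and in the 3523 regions of sgRNA4 and sgRNA6 only those centres were 174 bp apart (166 to 181). In the 450 regions of sgRNA4 and sgRNA5 only they were 139 bp apart (121 to 158.5), near the value of the members. A chain through an sgRNA4 peak can join sgRNA5 and sgRNA6 peaks that do not touch in the first of these classes, and peaks there are wider. As a yardstick from 1 guide, the replicates of sgRNA1, sgRNA2 and sgRNA3 had centres a median of 64 bp (55 to 103, n = 35 regions), 126 bp (29 to 193, n = 16) and 93 bp (40 to 113, n = 17) apart. The centres in members were thus further apart than those of replicate peaks of sgRNA1 and sgRNA3 and inside the interval of sgRNA2. Peak width was not matched in this comparison, which rests on 16 to 35 regions per guide. Summits were not given in the lists, so the centre is the midpoint of a peak.

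**Figure D4:**
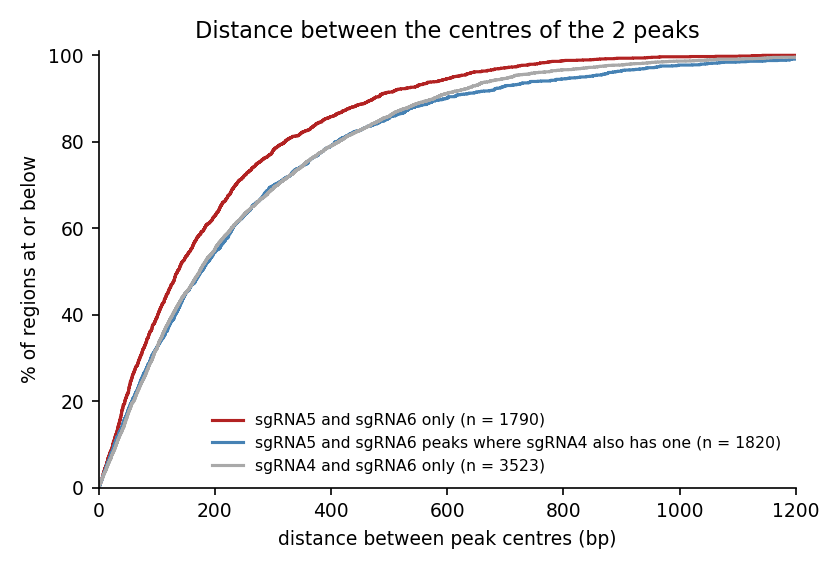
Cumulative share of regions (y axis) by distance between the centres of the peaks named in the key (x axis, bp). The curve of the members (red) lies to the left of both others: 39.4% of members were within 100 bp, against 32.5% of regions of all 3 long lists and 32.1% of regions of sgRNA4 and sgRNA6 only. Regions of sgRNA4 and sgRNA5 only, with 37.8% within 100 bp, are not drawn.

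The rule asks for an overlap of at least 1 bp, and the membership depended on that choice: when both peaks had to be covered to at least 50%, 1306 of the 1790 members (73.0%) were kept. The members just inside it were on chromosome 1 at 229365266 to 229366482, with 8 bp shared (scores 60.4 with sgRNA5 and 134.4 with sgRNA6), on chromosome 6 at 26734313 to 26735771, with 9 bp (57.1 and 158.8), and on chromosome 3 at 195163070 to 195164244, with 10 bp (70.8 and 72.3). Just outside it were an sgRNA5 peak on chromosome 19 at 12404580 to 12405037 (67.3), 1 bp from an sgRNA6 peak (100.01), and one on chromosome 5 at 72251158 to 72251812 (77.4), 4 bp from an sgRNA6 peak (76.3). In all, 49 of the 2912 regions of sgRNA5 alone were under 100 bp from an sgRNA6 peak of that guide alone.

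Leaving out the sgRNA4 list changed the size of the group far more than leaving out any 1 replicate list of sgRNA1 to sgRNA3. These lists were of very unlike length: sgRNA4 had 13660 peaks, and the replicate lists of sgRNA1 to sgRNA3 had 41 to 1278 each. A longer list can bar more regions, so the difference is not a trait of sgRNA4 by itself. With the sgRNA4 list left out, 3598 regions would have been members. Without any 1 replicate list of sgRNA1 to sgRNA3 there were 1790 to 1913, and those lists were not left out together. Of the 1820 regions of all 3 long lists, 134 (7.36%) were barred by an sgRNA4 peak whose score was under 55, and 276 (15.2%) by one under 60. Members were also often near sgRNA4 peaks: 198 (11.1%, 9.65 to 12.6) lay within 1000 bp of one and 548 (30.6%, 28.5 to 32.8) within 10000 bp. The regions of sgRNA5 alone were within those distances of an sgRNA4 peak in 6.70% (5.82 to 7.67) and 24.6% (23.03 to 26.2). For peaks of sgRNA1, sgRNA2 or sgRNA3, 25 members (1.397%) were within 1000 bp. The lists of these guides are far shorter than that of sgRNA4, and no other class of region was set beside this share. The median distance from a member to the nearest sgRNA4 peak was 30.2 kb (26.2 to 32.7).

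Members lay on 23 chromosomes, all but Y, where sgRNA5 had 1 peak. Chromosome 1 held 213 (11.9%), chromosome 19 138 (7.71%), chromosome 17 133 (7.43%) and chromosome 2 119 (6.65%), and chromosome 18 held the fewest, 13 (0.726%, 0.387 to 1.24). This spread was close to that of the lists the members come from. The share of all sgRNA5 peaks on a chromosome lay inside the 95% interval of the member share for 22 of 23 chromosomes, and that of sgRNA6 peaks for 21 of 23. The exceptions were chromosome 13 for sgRNA5, with 1.56% of members (1.04 to 2.25) and 2.43% of sgRNA5 peaks, and, for sgRNA6, chromosome 6, with 5.70% of members (4.67 to 6.87) and 4.58% of sgRNA6 peaks, and chromosome 22, with 2.74% (2.03 to 3.603) and 3.98%. With 23 chromosomes compared, about 1 interval in 20 misses by counting error alone. Chromosome 19 had the highest ratio to the sgRNA5 list, 1.18 (1.00 to 1.39), and chromosome 18 the lowest, 0.618 (0.330 to 1.05). The main intervals of both reach 1, that of chromosome 19 only just. With centres within 500 bp or peaks within 1000 bp joined, the chromosome 19 interval began at 1.02 and 1.05, and it began at 1.01 without replicate 2 of sgRNA1, of sgRNA2 or of sgRNA3. It began below 1 with 50% coverage of both peaks (0.989), the upper 50% of scores (0.884) and no sgRNA4 list (0.978). The same held without replicate 1 of sgRNA2 (0.997), and for the ratio to the sgRNA6 list (0.964) or to all regions (0.941). Without the sgRNA4 list the chromosome 18 ratio was 0.686 (0.460 to 0.984). With members formed from the upper 50% of each list by score, the chromosome 18 ratio was 1.07 (0.573 to 1.83). Unless another denominator is named, all these ratios were to the whole sgRNA5 list, also where members came from part of it.

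**Figure D5:**
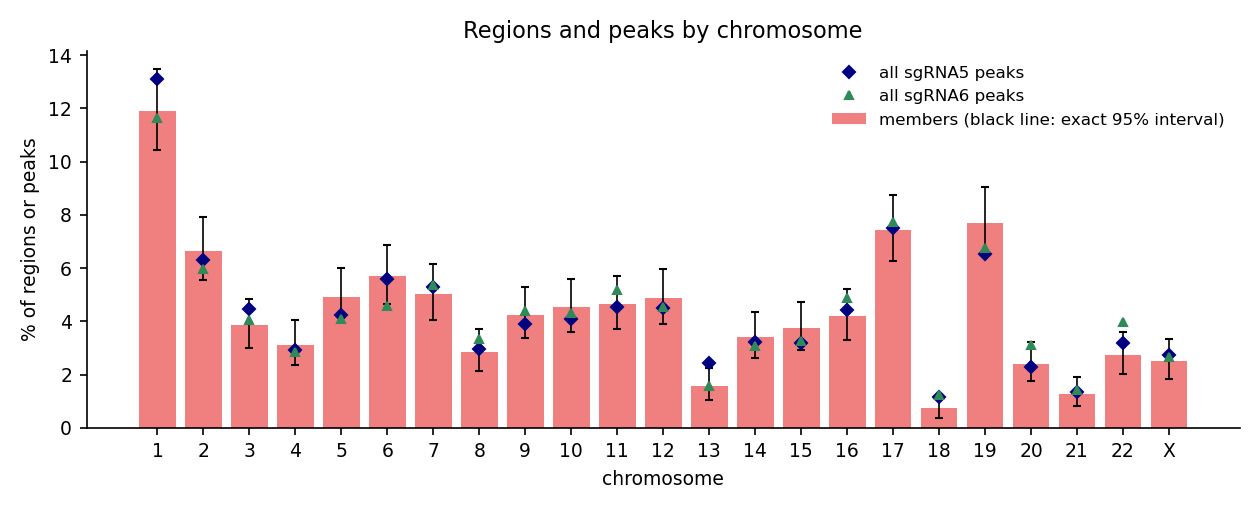
Share of the 1790 members on each chromosome (bars, with exact binomial 95% intervals as black lines) beside the share of all sgRNA5 peaks (blue diamonds) and all sgRNA6 peaks (green triangles). The diamond falls outside the interval on chromosome 13, and the triangle on chromosomes 6 and 22.

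Spacing of the members within chromosomes was not set against another class of region or an even spread. The median distance from a member to the next was 249 kb (225 to 283). Another member lay within 100 kb of 522 members (29.2%, 27.1 to 31.3) and within 10 kb of 94 (5.25%). The fullest 10 Mb windows were on chromosome 19, with 32 members each from 10 to 20 Mb and from 40 to 50 Mb, where sgRNA5 had 120 and 140 peaks. On chromosome 17 the windows from 40 to 50 Mb and from 70 to 80 Mb held 28 each. In the 10 fullest windows there were 21.9 to 29.6 members for every 100 sgRNA5 peaks, beside 21.4 over the whole genome. These windows were picked for their member counts after these had been seen, which favours high rates.

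The tightest groups of 3 members spanned 5.78 to 10.9 kb. On chromosome 17, 3 members lay between 46795719 and 46801502. Their sgRNA5 scores were 58.4, 169.7 and 87.5, and their sgRNA6 scores 61.7, 207.9 and 321.8. On chromosome 19, between 50363737 and 50373792, the sgRNA5 scores were 67.8, 85.0 and 74.2 and the sgRNA6 scores 211.4, 748.5 and 409.3. On chromosome 2, between 176961387 and 176972257, they were 167.3, 57.6 and 54.1 with sgRNA5 and 112.5, 240.2 and 59.1 with sgRNA6. The strongest sgRNA5 and sgRNA6 peaks of a group fell on the same member in the chromosome 19 group and on different members in the other groups.

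The widest member, on chromosome 9 at 73032661 to 73036241, was also 1 of the 2 that held several peaks of both guides, with 2 of sgRNA5 and 3 of sgRNA6 over 3581 bp. Its highest sgRNA5 peak scored 82.4 and its highest sgRNA6 peak 298.9, and these shared 72 bp. The third widest, on chromosome 14 at 105450548 to 105453593, owed its width to a single sgRNA6 peak of 3046 bp (score 276.9) that enclosed an sgRNA5 peak of 696 bp (55.4). Width in these members came from different arrangements: a chain of peaks on chromosome 9, a single broad peak on chromosome 14, and broad peaks of both guides at 161429980 on chromosome 1.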

How the data were processed

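Peak lists of 9 HA ChIP-seq libraries were used. The other 3 of the 12 described samples (dCas9 without a guide and 2 amplicon samples) were not analysed here. Per the submitters' processing notes, Bowtie, Bowtie2, MACS and the build hg19 were used; for settings and versions the sources used here are silent. The deposited score of each peak is the authors' value, given per library with no read counts, so depth is unknown. Per the labels, chromatin was sonicated to 300 bp on average and fragments of 300 to 650 bp were kept.

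Peaks sharing at least 1 bp were joined. Ranks were taken within a list, and rank percent is the rank over the list's length. Shares carry exact binomial (Clopper-Pearson) and medians order-statistic 95% intervals, which treat regions as independent and cover counting error only. No test was run, because the defining guides have 1 library each. Regions were named by a rule on rank, score, width, overlap, spacing and nearness to the threshold (the 8 best on the worse of both ranks, the 5 highest per guide, and 2 or 3 of each other kind); the fullest windows, the count of high members on chromosome 1 and its 4 positions were chosen after their values were seen. The members and these rules were chosen with earlier results of these data known. A planned motif search was not run, for want of an hg19 sequence. Joining was checked on simulated lists. Python 3.11.15, numpy 2.4.6, pandas 2.3.3, scipy 1.17.1 and matplotlib 3.10.9 were used.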

Additional observations from a re-analysis of the deposited data

How the results depend on the processing

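Of 139 alternative values for 12 results, 103 stayed within the main interval and 36 did not. For the number of members the bound was 1.5 times, and for rho it was 0.05. All values from leaving out 1 replicate list of sgRNA1 to sgRNA3 were among the 103, and those settings kept all 1790 members. Without replicate 1 of sgRNA1 or of sgRNA3 the members were the same 1790, so these values could not move. The 103 is thus no measure of how stable the results were. When both peaks had to be covered to at least 50%, 1483 members were found, 1306 of them among the 1790; the median sgRNA5 score was 67.6, the shares in the highest 10% were 8.36% (sgRNA5) and 15.0% (sgRNA6), rho was 0.17, overlap 98.6% of the smaller peak, centre distance 96.5 bp, distance to sgRNA4 23333 bp and members within 100 kb of another 26.3%. With centres within 500 bp, overlap was 98.3%, centre distance 121.5 bp and distance to sgRNA4 26016 bp. With the 50% of each list that scored higher, 1032 members were found, 635 of them among the 1790, with median scores of 85.9 and 183.5, shares in the highest 10% of 17.2 and 29.6% (raised by construction), rho 0.061, overlap 97.7%, a chromosome 18 ratio of 1.07, distance to sgRNA4 5844 bp and 18.1% within 100 kb. That ratio, still to the whole sgRNA5 list, had an interval of 0.573 to 1.83. The interval held both 1 and the main ratio of 0.618, so whether the low ratio held there cannot be told. With peaks within 1000 bp joined, overlap was 91.3%, centre distance 198 bp, distance to sgRNA4 36211 bp and 27.0% lay within 100 kb. Without the sgRNA4 list there were 3598 members, with median scores of 69.6 and 142.1, shares in the highest 10% of 10.7 and 23.2%, centre distance 148.5 bp, distance to sgRNA4 0 bp and 47.4% within 100 kb, so the share of sgRNA5 peaks in the highest 10% being below that of the list rests on barring regions with sgRNA4. Distance to sgRNA4 was taken to the whole sgRNA4 list in every setting. Where fewer sgRNA4 peaks bar regions, as without that list or with the higher-scored 50%, this distance is shortened by construction. Among the main members, another member was within 10 kb for 5.25% and within 1 Mb for 80.4%. With peak width in place of score, rho was 0.34. Leaving out any 1 replicate list of sgRNA1 to sgRNA3 gave 1790 to 1913 members. No paired analysis was possible because the defining guides have 1 library each and no result comes from a test. Score depends on depth, which is unknown and limits every comparison between lists.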
